A study of Mus musculus with 12 samples.

Results

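Chemokines and their receptors were followed through 12 RNA sequencing libraries of mouse kidney. The members were every protein-coding mouse gene with a symbol of the form Ccl, Cxcl, Ccr or Cxcr and a number, plus Cx3cl1, Cx3cr1, Xcl1 and Xcr1, matched by NCBI Gene number to the RefSeq annotation of assembly GRCm38.p6. This gave 57 members, 39 ligands and 18 receptors, of the 27179 genes with values. A level above 0 was found for 55 members in at least 1 library and for 37 in all 12 libraries, while Ccl21c and Ccl26 were listed at 0 throughout. A filter on low values, a TPM of 1 or more in 3 or more libraries (TPM is transcripts per 1000000, reads scaled by transcript length and library size), left 35 members for testing, 28 ligands and 7 receptors.

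The study asked how kidneys without the DNA repair nuclease FAN1 respond to chronic injury by cisplatin, a platinum drug that crosslinks DNA. Each of 4 groups held 3 libraries of whole kidney from mice on a strain background the labels call mixed. Their age is given as 8 to 12 weeks, which in the study's methods is the age at injection. Wild-type mice were compared with FAN1KO mice (labelled γGT1-Cre;Fan1-/-), in which Cre driven by the Ggt1 promoter deletes Fan1 in the proximal tubule and leaves the other kidney cells with the gene. Both genotypes received either saline or 2 mg/kg cisplatin by weekly intraperitoneal injection for 5 weeks. The 4 groups are named by genotype and injection, for example wild-type saline, and values are listed from replicate 1 to 3. The labels do not say that the libraries of a group came from separate animals, and the p-values measure only the spread between these samples, which may be technical in part.

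Chemokines are small secreted proteins that direct the migration of leukocytes by binding G protein-coupled receptors on their surface. They are classed by the spacing of their first cysteines into CC, CXC, CX3C and XC ligands, and most receptors bind several ligands of 1 class. Some are induced by injury and inflammation and others are made constitutively. In the injured kidney, tubule cells, endothelium and resident macrophages are known sources.

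The recovered depth was 37201963 to 82947246 reads per library, so that 1 read in a transcript of 1 kb was worth at most 0.0479 TPM. Fan1 RNA did not separate the genotypes: FAN1KO saline kidneys held 1.17, 1.54 and 2.28 TPM and wild-type saline kidneys 3.80, 3.35 and 1.98 TPM, which is not a check of a deletion limited to 1 cell type. In each group 1 library, replicate 3 of wild-type saline and of FAN1KO cisplatin and replicate 1 of the other two, carried Y-linked RNA (Ddx3y, Eif2s3y, Kdm5d and Uty, mean log2(TPM + 1) 3.46 to 3.93, against at most 0.104 in the other 8 libraries). The study used male and female mice and the labels give no sex. Endothelial markers (Pecam1, Kdr, Cdh5, Emcn and Plvap, summed) were at 35.9 to 77.7 TPM in these 4 libraries and at 87.6 to 332 TPM in the other 8, so results are also given for the 8 alone. Those fits leave out 1 of the 3 libraries of each group, were chosen after seeing the data and rest on few libraries. Proximal tubule and thick ascending limb markers (Lrp2, Slc34a1, Umod) were present in every library. In RNA from a whole kidney, fewer cells of a type and less RNA per cell cannot be told apart.

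Before injury, the chemokine RNA of the kidney was carried by a handful of constitutive ligands. TPM divides reads by a length for each gene, so the order of genes by level depends on how well that length fits the transcripts made. For Cxcl12 the recovered length was 7161 bases and for Ccl28 3740 bases, and their fit was not tested. In wild-type saline kidneys, Ccl28, a mucosal epithelial chemokine, had the highest mean at 37.2 ± 26.0 TPM (SD, n = 3), followed by Cx3cl1 (fractalkine, a membrane-tethered ligand) at 34.9 ± 8.34 TPM and Cxcl16 (also membrane-tethered) at 31.4 ± 5.17 TPM. Cxcl12, the ligand of Cxcr4, came next at 30.1 ± 12.2 TPM, and these neighbours lay within each other's spread. The 4 genes made up 67.6% of the summed TPM of the members. Receptors were low throughout, with Cxcr4 the highest at 4.14 ± 1.68 TPM.

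The order changed in the FAN1KO cisplatin kidneys. Cxcl16 was then highest at 109 ± 14.9 TPM, Cxcl1 followed at 65.7 ± 28.6 TPM and Cx3cl1 at 64.3 ± 19.9 TPM, the last pair within each other's spread, and Cxcl10 was at 35.9 ± 10.9 TPM. In wild-type cisplatin kidneys, Ccl5 was the third by mean level, at 47.1 ± 32.0 TPM. The 39 ligands summed to 188, 195 and 169.6 TPM in the wild-type saline group, 115, 237 and 186 TPM in FAN1KO saline, 218, 392 and 377 TPM in wild-type cisplatin and 621, 453 and 376 TPM in FAN1KO cisplatin kidneys. The sum for the 18 receptors was 16.0, 17.0 and 6.81 TPM, 7.28, 18.1 and 11.4 TPM, 9.38, 26.5 and 24.0 TPM and 51.2, 27.0 and 23.5 TPM in the same order. Both sums overlapped between the cisplatin groups. Those of the 12 CXC ligands did not overlap, at 56.1, 157 and 129.5 TPM in wild-type and 348, 259 and 209.5 TPM in FAN1KO cisplatin kidneys. The 25 CC ligands overlapped, at 135, 170.4 and 195 TPM and 191, 125 and 124 TPM. The sums carry no test.

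**Figure D1:**
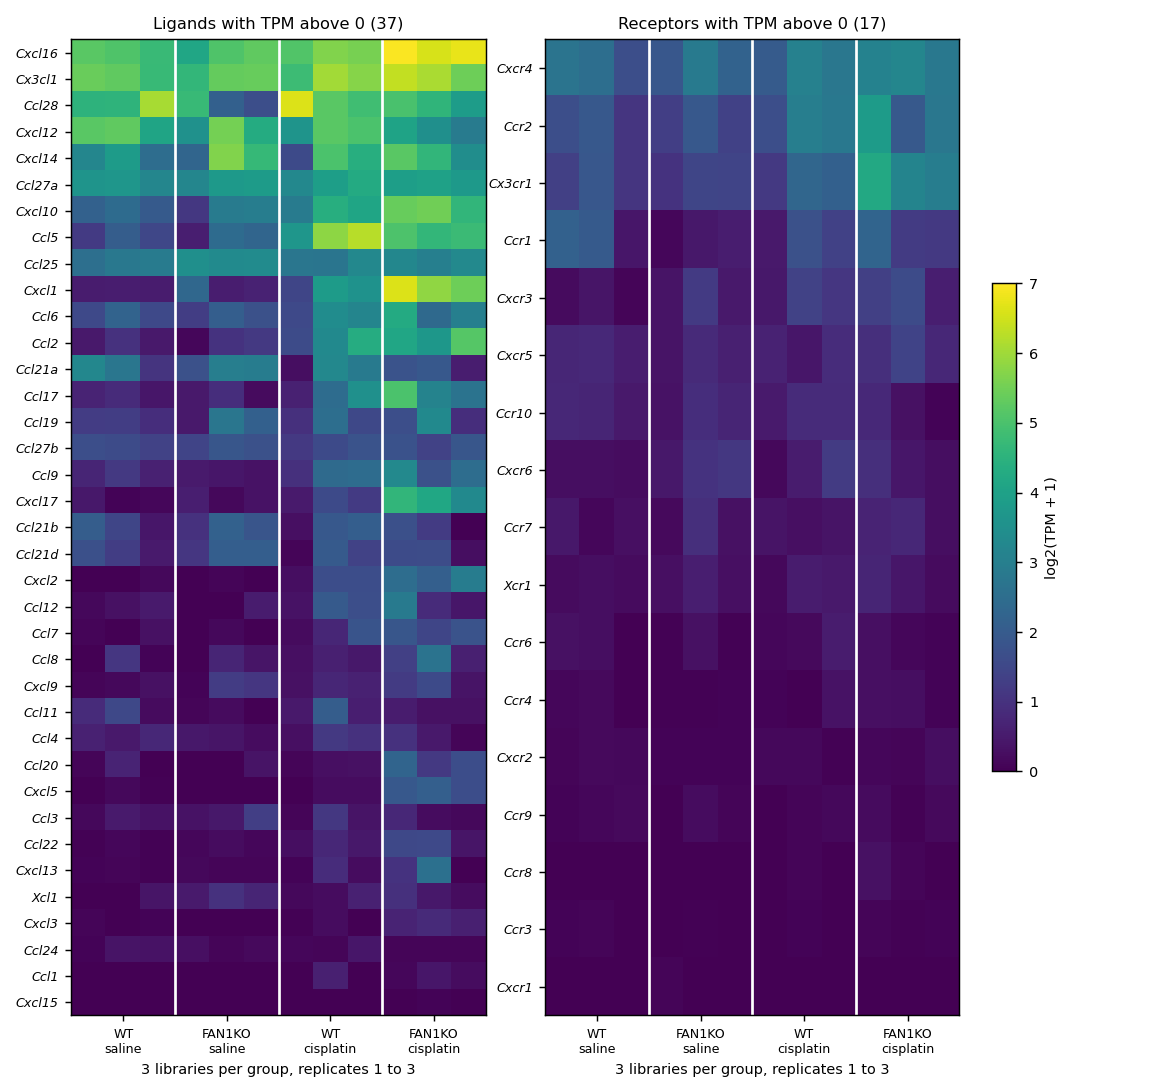
Levels of 37 ligands (left) and 17 receptors (right) with TPM above 0, as log2(TPM + 1) on the colour scale, for 3 libraries in each of 4 groups, with genes ordered by mean level. Cxcl1, Cxcl16 and Cxcl17 are brightest in the FAN1KO cisplatin libraries, and most receptors stay dark in all 12.

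The main comparison asked which members differed between FAN1KO and wild-type kidneys after cisplatin. Higher in FAN1KO were 6 ligands, Cxcl1, Cxcl2, Cxcl5, Cxcl16, Cxcl17 and Ccl20, and 1 receptor, Cx3cr1, by log2 fold changes from 1.32 to 3.02 (limma on log2(TPM + 1), Benjamini-Hochberg adjusted p under 0.05 over all 14972 genes tested). No member was lower. These 7 are 20% of the 35 members tested, and 19.6% of all genes were higher and 4.37% lower by the same rule, so the share called is near that of the whole transcriptome. All 7 also passed a fold change of at least 2, as 5.72% of all genes did. Of the 7, Cxcl2, Cxcl5, Cxcl17 and Ccl20 passed the filter only through the FAN1KO cisplatin libraries. The 2-fold count is therefore not read against that share. The values of all 3 FAN1KO libraries lay above those of all 3 wild-type libraries for 8 members, the 7 and Cxcl10, and below them for none, against 35.7% and 8.60% of all genes.

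The median log2 fold change was 0.42 over the 35 members and 0.24 over all genes tested. Scaling each library by its median ratio to the others took the second value to -0.02 and the first to 0.16, and moved the higher share of all calls from 81.8% to 53.0%. The same 7 members were called after that scaling. In the 8 libraries without Y-linked RNA 12 members were called, 9 higher (the 7, Cxcl9 and Cxcl10) and 3 lower (Ccl5, Ccl21a and Cxcl12), against 28.9% and 7.76% of all genes. A single member in 3 against 3 libraries cannot go below p = 0.1 in an exact two-sided permutation test, and each of the 7 reached that value. A caution attaches to the count, since 10 of the 35 tested members, Cxcl2, Cxcl5, Cxcl17 and Ccl20 among them, had fewer than 3 libraries at 1 TPM outside the FAN1KO cisplatin group and so entered the test through it.

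**Figure D2:**
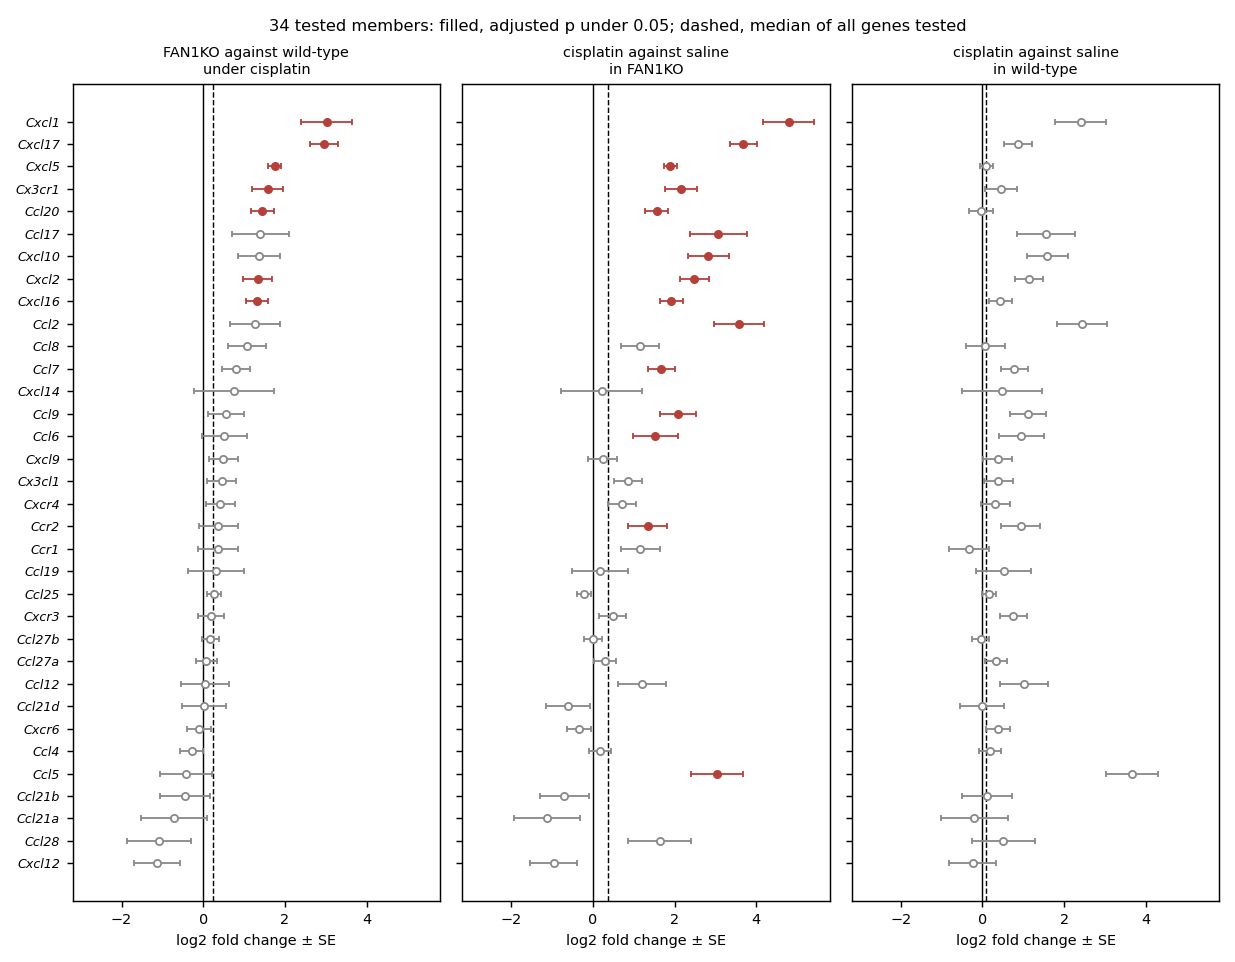
Log2 fold change on the log2(TPM + 1) scale with its standard error for 34 tested members in 3 comparisons, filled where the adjusted p was under 0.05, with the median of all genes tested as a dashed line. There are 7 filled points at left, 15 in the middle and none at right, where Ccl5 has the largest value, 3.66.

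The 3 tested ligands of Cxcr2, the main receptor by which neutrophils are attracted, were all higher in FAN1KO than in wild-type kidneys after cisplatin. Of these, Cxcl2 and Cxcl5 passed the filter only through the FAN1KO cisplatin libraries, so that all 3 were higher is in part set by the filter. Cxcl1 (keratinocyte chemoattractant, chr5:90891245-90893121) was at 0.458, 0.487 and 0.439 TPM in wild-type saline, 4.02, 0.482 and 0.586 TPM in FAN1KO saline, 1.73, 13.2 and 10.9 TPM in wild-type cisplatin and 97.8, 56.5 and 42.8 TPM in FAN1KO cisplatin kidneys. Every FAN1KO cisplatin library was above every other, and the wild-type cisplatin library with Y-linked RNA was the lowest of its group. Its FAN1KO against wild-type difference after cisplatin was 7.61-fold in mean TPM (log2 fold change 3.02, SE 0.63, adjusted p = 0.00797), and 2.53 on the log2 scale in the 8 libraries without Y-linked RNA (adjusted p = 0.000745).

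Cxcl2 (macrophage inflammatory protein-2, chr5:90903899-90905938) was nearly undetected with saline, at 0, 0 and 0.111 TPM in wild-type and 0, 0.0773 and 0 TPM in FAN1KO kidneys. After cisplatin it was at 0.191, 2.13 and 2.16 TPM in wild-type and 4.63, 3.33 and 6.71 TPM in FAN1KO kidneys. The cisplatin groups did not overlap (log2 fold change 1.33, SE 0.35, adjusted p = 0.0212), but the adjusted p went to 0.0679 without FAN1KO cisplatin replicate 1 and was above 0.05 also without replicate 3 of that group.

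Cxcl5 (also called LIX, chr5:90759298-90761625) was listed at 0 in all 3 FAN1KO saline libraries and was at 0, 0.102 and 0.0241 TPM in wild-type saline kidneys. It was at 0, 0.164 and 0.173 TPM in wild-type cisplatin and at 2.77, 3.36 and 2.13 TPM in FAN1KO cisplatin kidneys, where 96, 125 and 78 reads were recovered. Only the FAN1KO cisplatin libraries exceeded 1 TPM (log2 fold change 1.75, SE 0.16, adjusted p = 0.000182). Against a floor of 3 reads per library, FAN1KO cisplatin kidneys had at least 39.3-fold more Cxcl5 than FAN1KO saline kidneys.

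Cxcl3, a close relative, stayed under the filter with at most 0.792 TPM. It was at 0.0292, 0.179 and 0 TPM in wild-type cisplatin and 0.613, 0.792 and 0.534 TPM in FAN1KO cisplatin kidneys, again without overlap, and it was called where no filter was applied (log2 fold change 0.62, adjusted p = 0.000665). Cxcl15, the lung-enriched ligand of the same kind, had 1 read in all, a lower bound, since reads recovered from steps in TPM can be too few for the lowest genes. The receptors were scarce: Cxcr2 was at 0.0314 to 0.208 TPM over the 12 libraries and Cxcr1 above 0 in 1 library, at 0.0609 TPM. Of 6 neutrophil markers, Ly6g and Mpo were at 0 in most libraries and at most 0.590 TPM. The summed level of the 6 was 7.00 to 9.43 TPM in wild-type saline, 0.504 to 7.20 TPM in FAN1KO saline, 1.64 to 6.01 TPM in wild-type cisplatin and 7.77 to 11.4 TPM in FAN1KO cisplatin kidneys, and neither tested marker (S100a8 and S100a9) was called between the cisplatin groups.

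**Figure D3:**
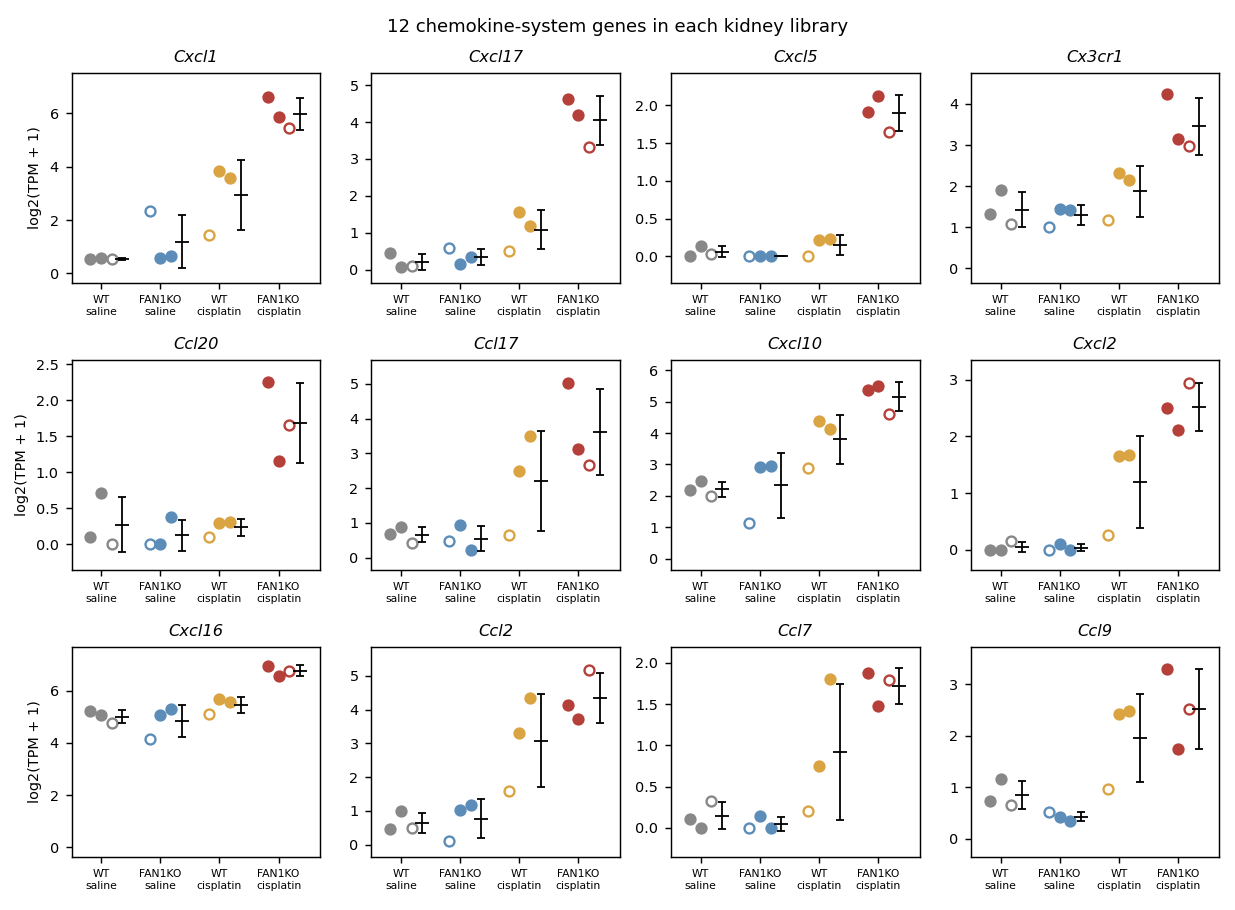
Level of 12 members in each library as log2(TPM + 1), in panels with their own axes. Open circles are the libraries with Y-linked RNA, and the dash and bar are the mean and SD of 3 libraries. The FAN1KO cisplatin libraries stand above all others for Cxcl1, Cxcl17, Cxcl5, Cx3cr1, Ccl20, Cxcl10, Cxcl2 and Cxcl16, and overlap wild-type cisplatin for Ccl17, Ccl2, Ccl7 and Ccl9.

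Cxcl1, Cxcl2, Cxcl3 and Cxcl5 are neighbours on chromosome 5, and promoter windows were given for 3 of them. Of the 57 members, 42 had a window of 250 bases before to 50 bases after the start of transcription in RefSeq (GRCm38.p6), Cxcl5, Cxcl16, Cxcl17, Ccl2, Ccl5 and Ccl7 not among them. The 5 windows below, of ligands picked by name, all hold a match to the NF-κB consensus, in capitals, read 5′ to 3′ on the gene's strand. Of these ligands 4 were higher after cisplatin in FAN1KO kidneys and the fifth, Cxcl3, lay under the filter. Ccl6, Ccl9, Ccl17, Ccr2 and Cx3cr1 were also higher in that comparison and had a window, and of these only Ccl9 held a match. NF-κB is the transcription factor best known for switching on inflammatory genes.
Cxcl1: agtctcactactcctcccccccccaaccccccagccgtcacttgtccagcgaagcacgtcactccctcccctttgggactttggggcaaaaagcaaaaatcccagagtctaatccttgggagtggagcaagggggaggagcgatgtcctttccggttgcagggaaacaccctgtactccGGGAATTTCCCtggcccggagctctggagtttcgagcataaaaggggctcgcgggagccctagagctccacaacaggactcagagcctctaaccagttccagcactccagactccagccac
Cxcl2: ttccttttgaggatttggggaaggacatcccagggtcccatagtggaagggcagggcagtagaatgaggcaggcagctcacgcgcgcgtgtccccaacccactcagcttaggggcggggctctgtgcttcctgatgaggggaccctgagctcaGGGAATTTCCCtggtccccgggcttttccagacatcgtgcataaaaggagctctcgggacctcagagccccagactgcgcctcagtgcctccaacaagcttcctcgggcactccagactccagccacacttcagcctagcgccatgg
Cxcl3: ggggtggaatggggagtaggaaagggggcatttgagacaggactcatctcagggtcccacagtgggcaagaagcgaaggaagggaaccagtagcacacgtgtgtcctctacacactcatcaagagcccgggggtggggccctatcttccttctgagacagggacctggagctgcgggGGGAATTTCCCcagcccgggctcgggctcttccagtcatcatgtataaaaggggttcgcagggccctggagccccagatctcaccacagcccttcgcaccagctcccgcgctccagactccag
Cxcl10: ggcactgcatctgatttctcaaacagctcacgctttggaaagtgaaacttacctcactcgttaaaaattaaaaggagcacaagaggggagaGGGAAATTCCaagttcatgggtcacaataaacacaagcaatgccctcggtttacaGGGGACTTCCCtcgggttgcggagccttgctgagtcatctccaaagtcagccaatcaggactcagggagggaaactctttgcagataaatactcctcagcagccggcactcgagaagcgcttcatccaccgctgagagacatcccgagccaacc
Ccl20: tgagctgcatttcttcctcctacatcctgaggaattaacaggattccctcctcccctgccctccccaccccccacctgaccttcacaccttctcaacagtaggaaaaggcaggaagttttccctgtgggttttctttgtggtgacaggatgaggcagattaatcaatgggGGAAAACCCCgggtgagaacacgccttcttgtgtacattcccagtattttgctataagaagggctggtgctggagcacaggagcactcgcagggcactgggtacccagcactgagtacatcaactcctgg
The windows are chr5:90890995-90891294 on the plus strand, chr5:90903649-90903948 on the plus strand, chr5:90785851-90786150 on the plus strand, chr5:92348840-92349139 on the minus strand and chr1:83116516-83116815 on the plus strand, in that order.

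The same run of 11 bases, GGGAATTTCCC, stands 71, 97 and 73 bases before the start of Cxcl1, Cxcl2 and Cxcl3. It holds 2 overlapping matches, 1 on each strand. Compared position by position, without gaps, the 3 windows share 22% to 28.7% of their bases. The run stands at a different distance in each, so the windows are not in register. That share therefore does not say how alike they are, and an alignment was not made. Cxcl10 has a run at 159 and one at 104 bases before its start, and Ccl20 one at 80 bases, on the opposite strand. Over all 42 members with a window, 11 (26.2%) held a match on either strand, against 9.55% of 27025 genes. Beside these 5 they were Ccl9, Ccl27a and Ccr1, which like Cxcl10 were tested and not called between the cisplatin genotypes. The others were Ccl1, Ccr3 and Ccr6, which lay under the filter.

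An interferon-stimulated response element core (GAAANNGAA, either strand) was in the windows of 8 members, 19.0% against 9.76% of all genes, among them Cxcl9 and Cxcl10. The AP-1 site TGANTCA was in those of 8 members, 19.0% against 8.97%, and TATAAA in those of 12, 28.6% against 15.7%. In 0 members did matches to different motifs share bases. A match describes the letters of the window, not binding.

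Cxcl17 and Ccl20, both ligands made by epithelia, were likewise low outside the FAN1KO cisplatin group. Cxcl17 (chr7:25400053-25412886), a mucosal chemokine, was at 0.370, 0.0557 and 0.0788 TPM in wild-type saline, 0.496, 0.110 and 0.263 TPM in FAN1KO saline, 0.428, 1.97 and 1.26 TPM in wild-type cisplatin and 23.5, 17.1 and 9.08 TPM in FAN1KO cisplatin kidneys. The FAN1KO cisplatin libraries were all above the other 9, by 13.6-fold in mean TPM against wild-type cisplatin (log2 fold change 2.96, SE 0.34, adjusted p = 0.000510). The reference places 4732471J01Rik on the opposite strand at this locus, and that gene was at 0.335 to 1.92 TPM.

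Ccl20 (chr1:83116766-83119167), the only chemokine ligand of Ccr6, was at 0.0780, 0.633 and 0 TPM and 0, 0 and 0.299 TPM in the saline groups, 0.0737, 0.226 and 0.239 TPM in wild-type cisplatin and 3.76, 1.22 and 2.14 TPM in FAN1KO cisplatin kidneys. The last group again did not overlap any other (log2 fold change 1.45, SE 0.28, adjusted p = 0.00612), with 63, 22 and 38 recovered reads. Ccr6, carried by B cells and some T cells and dendritic cells, was at 0.0191 to 0.457 TPM and under the filter.

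Cxcl16 and Cx3cl1 are the tethered chemokines, held on the cell surface by a mucin stalk and shed by the proteases Adam10 and Adam17. Cxcl16 (chr11:70454389-70459984) was at 36.0, 32.4 and 25.8 TPM in wild-type saline, 16.8, 32.6 and 38.5 TPM in FAN1KO saline, 33.5, 49.8 and 46.3 TPM in wild-type cisplatin and 124, 93.9 and 108 TPM in FAN1KO cisplatin kidneys. The FAN1KO cisplatin libraries were the 3 highest of the 12, and the difference was 2.51-fold in mean TPM (log2 fold change 1.32, SE 0.27, adjusted p = 0.00759). Zmynd15, on the opposite strand and partly overlapping, was at 1.96 to 19.3 TPM.

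Its receptor Cxcr6, found on activated T cells and natural killer T cells, was at 0.109, 0.455 and 1.34 TPM in wild-type and 0.934, 0.329 and 0.191 TPM in FAN1KO cisplatin kidneys, which overlap (log2 fold change -0.10, SE 0.29, adjusted p = 0.828). Fyco1 on the opposite strand, at 6.89 to 11.3 TPM, exceeds it.

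Cx3cl1 was among the highest members in every group. It was at 27.0, 64.8 and 52.2 TPM in wild-type and 81.7, 68.7 and 42.6 TPM in FAN1KO cisplatin kidneys, and the difference was not called (log2 fold change 0.45, SE 0.35, adjusted p = 0.372). Its receptor was called. Cx3cr1 (chr9:120048683-120068296), carried by monocytes, macrophages and kidney dendritic cells, was at 1.48, 2.72 and 1.12 TPM in wild-type saline, 1.02, 1.74 and 1.69 TPM in FAN1KO saline, 1.25, 3.96 and 3.45 TPM in wild-type cisplatin and 17.8, 7.89 and 6.84 TPM in FAN1KO cisplatin kidneys. The cisplatin groups did not overlap (log2 fold change 1.57, SE 0.39, adjusted p = 0.0164), but the adjusted p was 0.0666 without FAN1KO cisplatin replicate 1, the highest library, and was above 0.05 also without wild-type cisplatin replicate 1, the lowest of its group.

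FAN1KO cisplatin replicate 1 was also the highest library for the sum of monocyte and macrophage markers. The 10 markers summed to 74.8 to 253 TPM in wild-type cisplatin and 250.5 to 562 TPM in FAN1KO cisplatin kidneys, against 70.5 to 125 TPM and 47.7 to 122 TPM in the saline groups. Between the cisplatin groups 2 of the 10, Cd14 and Cd68, were called higher, beside 19.6% of all genes, and none was called lower. Csf1r went the other way without a call (log2 fold change -0.34, adjusted p = 0.467). None of the 10 was at 0 in any library. Their part in the Cx3cr1 difference was not tested.

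Ccr2 and its ligands form the axis by which monocytes leave the marrow and enter tissue. Ccr2, Ccl2 and Ccl7 rose with cisplatin in FAN1KO kidneys, without a called difference between the genotypes. The ligands Ccl8 (1.16, adjusted p = 0.0725) and Ccl12 (1.21, adjusted p = 0.121) did not pass the same test, and did in the 8 libraries (adjusted p = 0.0432 and 0.0481). Ccl2 (monocyte chemoattractant protein-1) was at 0.388, 0.998 and 0.396 TPM in wild-type saline, 0.0850, 1.04 and 1.24 TPM in FAN1KO saline, 2.02, 8.94 and 19.1 TPM in wild-type cisplatin and 16.7, 12.2 and 34.9 TPM in FAN1KO cisplatin kidneys. The cisplatin groups overlapped (log2 fold change 1.27, SE 0.61, adjusted p = 0.155), while in FAN1KO the cisplatin effect was called (log2 fold change 3.57, SE 0.61, adjusted p = 0.00165).

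Ccl7, a relative with the same receptor, was at 0.148, 0.679 and 2.51 TPM in wild-type and 2.69, 1.78 and 2.48 TPM in FAN1KO cisplatin kidneys and at most 0.249 TPM with saline (log2 fold change 0.80, SE 0.33, adjusted p = 0.105 between the genotypes). Ccr2 itself was at 2.22, 7.01 and 6.04 TPM in wild-type and 13.3, 2.89 and 5.91 TPM in FAN1KO cisplatin kidneys, with replicate 1 of the last group the highest, as for the macrophage markers. Its cisplatin effect in FAN1KO (log2 fold change 1.35, SE 0.48, adjusted p = 0.0450) was no longer called without FAN1KO cisplatin replicate 1 or 3, without FAN1KO saline replicate 1 or 3, or in the 8 libraries (adjusted p = 0.0823).

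Ligands of Ccr1, a receptor of monocytes, macrophages and neutrophils, gave a mixed picture. Ccl9, a macrophage-derived ligand, was at 0.954, 4.35 and 4.58 TPM in wild-type and 8.82, 2.34 and 4.68 TPM in FAN1KO cisplatin kidneys and at 0.433, 0.334 and 0.266 TPM in FAN1KO saline kidneys, and the cisplatin effect was called in FAN1KO (log2 fold change 2.09, SE 0.44, adjusted p = 0.00461). The genotypes overlapped after cisplatin. Ccl6, its neighbour, passed narrowly in the same comparison (adjusted p = 0.0476) and not in the 8 libraries (adjusted p = 0.0652). Ccr1 was at 3.48, 2.94 and 0.331 TPM in wild-type saline, 0.0968, 0.355 and 0.466 TPM in FAN1KO saline, 0.386, 2.30 and 1.57 TPM in wild-type cisplatin and 3.73, 1.31 and 1.24 TPM in FAN1KO cisplatin kidneys, and was called in none of the 5 comparisons over the 12 libraries without a covariate. In the 8 libraries it was called higher for cisplatin in FAN1KO (1.23, adjusted p = 0.0165) and in the interaction (adjusted p = 0.0428), and in both also with Y-linked RNA as a covariate (adjusted p = 0.00840 and 0.0302).

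Ccl5 (RANTES, a ligand of Ccr1 and Ccr3 among other receptors), singled out after its values were seen, stood apart from the ligands above. It was at 1.29, 3.18 and 1.80 TPM in wild-type saline, 0.515, 4.49 and 3.91 TPM in FAN1KO saline, 11.8, 54.8 and 74.5 TPM in wild-type cisplatin and 32.0, 23.7 and 26.3 TPM in FAN1KO cisplatin kidneys. Of the wild-type cisplatin libraries, 2 were above and 1, that with Y-linked RNA, was below all 3 FAN1KO ones, and the difference was -0.43 on the log2 scale (SE 0.64, adjusted p = 0.656). Without the libraries with Y-linked RNA, and so without that wild-type one, it was -1.19 (adjusted p = 0.0198), lower in FAN1KO. The 8 T cell markers summed to 3.23 to 14.3 TPM in wild-type and 6.94 to 22.7 TPM in FAN1KO cisplatin kidneys, and the 5 natural killer cell markers to 0.894 to 5.44 TPM and 1.43 to 2.32 TPM, and their part in the Ccl5 level was not tested.

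Ccl17, which attracts T cells through Ccr4, spread widely among the treated libraries. It was at 0.575, 4.58 and 10.3 TPM in wild-type and 31.5, 7.80 and 5.35 TPM in FAN1KO cisplatin kidneys, and at 0.608, 0.823 and 0.350 TPM and 0.400, 0.896 and 0.156 TPM with saline. The genotypes overlapped after cisplatin (log2 fold change 1.40, SE 0.70, adjusted p = 0.170), and the cisplatin effect was called in FAN1KO (log2 fold change 3.07, SE 0.70, adjusted p = 0.00695). Ccl22, the other ligand of Ccr4, was at 1.85, 1.89 and 0.324 TPM in FAN1KO cisplatin kidneys and under the filter, as was Ccr4 at 0 to 0.258 TPM.

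Cxcl10, an interferon-induced ligand of Cxcr3 that attracts T cells and natural killer cells, was at 3.52, 4.50 and 2.97 TPM in wild-type saline, 1.21, 6.50 and 6.76 TPM in FAN1KO saline, 6.47, 19.8 and 16.3 TPM in wild-type cisplatin and 40.4, 43.9 and 23.6 TPM in FAN1KO cisplatin kidneys. The cisplatin groups did not overlap, yet the difference was not called (log2 fold change 1.36, SE 0.51, adjusted p = 0.0744). It was called in the 8 libraries without Y-linked RNA (1.18, adjusted p = 0.00158) and on recovered read counts (adjusted p = 0.0362). Art3, on the opposite strand over this locus, was at 1.04 to 4.92 TPM. Cxcl9, the sister ligand, was at 1.32, 1.99 and 0.280 TPM in FAN1KO cisplatin kidneys, and the reference lists Cxcl11 as a pseudogene, so it was not a member. Cxcr3 was at 0.368, 1.61 and 1.16 TPM in wild-type and 1.49, 2.05 and 0.505 TPM in FAN1KO cisplatin kidneys, which overlap (log2 fold change 0.19, SE 0.33, adjusted p = 0.704).

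Cxcl12, the stromal and endothelial ligand of Cxcr4, was chosen for description after its values were seen. It was at 36.0, 38.2 and 16.1 TPM in wild-type saline, 10.6, 45.3 and 18.8 TPM in FAN1KO saline, 11.4, 36.2 and 31.6 TPM in wild-type cisplatin and 15.8, 10.2 and 6.60 TPM in FAN1KO cisplatin kidneys. The FAN1KO cisplatin group held some of the lowest values but overlapped the wild-type one (log2 fold change -1.13, SE 0.57, adjusted p = 0.172), and in the 8 libraries alone the difference was -1.34 (adjusted p = 0.0279). The sum of the endothelial markers overlapped too, at 61.7 to 332 TPM in wild-type and 35.9 to 144 TPM in FAN1KO cisplatin kidneys. None of the 5 was called between the cisplatin genotypes, and their part in the Cxcl12 level was not tested. Cxcr4 was at 2.23 to 8.23 TPM over all libraries and was called in no comparison without a covariate. With Y-linked RNA as a covariate it was higher for cisplatin in FAN1KO (0.74, adjusted p = 0.00750).

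Ccl28 spread widely among replicates. It was at 21.8, 22.6 and 67.2 TPM in wild-type saline, 25.2, 3.41 and 2.22 TPM in FAN1KO saline, 99.0, 35.8 and 28.0 TPM in wild-type cisplatin and 31.0, 23.1 and 13.5 TPM in FAN1KO cisplatin kidneys, and in the first 3 groups the highest library was the one with Y-linked RNA. No comparison of it was called over the 12 libraries without a covariate, and the FAN1KO against wild-type difference with saline was -2.21 (SE 0.77, adjusted p = 0.379). In the 8 libraries it was -2.62 (adjusted p = 0.00213), and the cisplatin effect in FAN1KO was 2.88 (adjusted p = 0.000135). With Y-linked RNA as a covariate the latter was 1.60 (adjusted p = 0.0389).

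The remaining constitutive ligands tested, Ccl19 and Ccl21a, Ccl21b and Ccl21d (ligands of Ccr7), Ccl25 (of Ccr9), Ccl27a and Ccl27b (of Ccr10) and Cxcl14, were called in none of the 5 comparisons over the 12 libraries without a covariate. With Y-linked RNA as a covariate Ccl21a, Ccl21b and Ccl21d were lower for cisplatin in FAN1KO (adjusted p = 0.0130, 0.0210 and 0.0268). In the 8 libraries Ccl21a was lower in that comparison (-1.10, adjusted p = 0.00356), between the cisplatin genotypes (-1.22, adjusted p = 0.00467) and in the interaction (adjusted p = 0.0327). Ccl27a was at 8.19 to 18.4 TPM and Ccl25 at 4.83 to 10.2 TPM. Cxcl14 ranged from 1.99 to 49.97 TPM, with the lowest value of each group in its library with Y-linked RNA. Ccl21a was likewise lowest in that library of each group, and ranged from 0.204 to 8.72 TPM. Near-identical copies (Ccl21a, Ccl21b and Ccl21d, Ccl27a and Ccl27b) share reads, so their separate levels are uncertain. Ccl27a and Ccl27b also overlap Il11ra1 and Il11ra2 on the opposite strand, and Ccl3 and Ccl4 overlap each other on opposite strands, and the strand setting of the counting is not given in the sources used here.

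The effect of cisplatin was then read within each genotype. In FAN1KO kidneys 15 members were higher after cisplatin and none was lower, 13 of 28 ligands and 2 of 7 receptors, at a background of 34.9% of all genes higher and 4.90% lower. The 15, which are 42.9% of those tested, all changed by at least 2-fold, as 12.0% of all genes did. They were Cxcl1 (4.79, SE 0.63), Cxcl17 (3.69, SE 0.34), Ccl2, Ccl17, Ccl5, Cxcl10, Cxcl2, Cx3cr1, Ccl9, Cxcl16, Cxcl5, Ccl7, Ccl20, Ccl6 and Ccr2 (1.35, SE 0.48), in order of log2 fold change. The median was 1.16 over the members and 0.37 over all genes, and 0.96 and -0.03 after median-ratio scaling, which took the higher share of all calls from 87.7% to 50.7%. After that scaling 13 of the 15 were still called, without Ccl6 and Ccr2, and Cxcl12 was called lower. In the 8 libraries 20 were called, 18 higher (these 13, Ccl8, Ccl12, Ccl28, Ccr1 and Cx3cl1) and 2 lower (Ccl21a and Cxcl12), against 44.4% and 8.39% of all genes. Of the 15, Cxcl2, Cxcl5, Cxcl17, Ccl7, Ccl17 and Ccl20 entered the test through the FAN1KO cisplatin libraries, so the counts are not read against the shares of all genes. This comparison and the one between genotypes share the FAN1KO cisplatin libraries.

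In wild-type kidneys no member was called after cisplatin, although 9 were higher and none lower at an unadjusted p under 0.05, as were 2.55% and 0.448% of all genes. After adjustment 0.0601% of all genes were higher and 0.00% lower. The largest differences were those of Ccl5 (log2 fold change 3.66, SE 0.64, adjusted p = 0.119), Ccl2 (2.43, SE 0.61, adjusted p = 0.631) and Cxcl1 (2.41, SE 0.63, adjusted p = 0.739). For each of these the 3 cisplatin libraries lay above the 3 saline ones, and the cisplatin library with Y-linked RNA, replicate 1, was the lowest of its group. Without that library Ccl2, Ccl5, Cxcl1 and Cxcl2 were called higher (adjusted p = 0.0303, 0.0115, 0.0367 and 0.0275), and no share of all genes is given for that fit. In the 8 libraries without Y-linked RNA these 4 and Cxcl10 were called higher, as were 0.401% of all genes, Ccl5 with a log2 fold change of 4.39 (adjusted p = 0.00532). Tubule injury genes in wild-type cisplatin kidneys were also lowest in replicate 1, with Lcn2 at 4.37, 42.1 and 20.8 TPM.

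The difference between the cisplatin effects was tested as an interaction. It was positive for 4 ligands, which rose more in FAN1KO than in wild-type kidneys, and negative for none, with 5.22% of all genes positive and 1.02% negative. Of the 4, Cxcl17, Cxcl5 and Ccl20 entered the test through the FAN1KO cisplatin libraries, where they are high, so the count is not read against those shares. The 4 were Cxcl17 (interaction 2.81 on the log2 scale, SE 0.48, adjusted p = 0.0137), Cxcl5 (1.80, SE 0.23, adjusted p = 0.00508), Ccl20 (1.59, SE 0.40, adjusted p = 0.0450) and Cxcl16 (1.48, SE 0.38, adjusted p = 0.0486). Ccl20 was lost when any library but FAN1KO cisplatin replicate 2 was left out, and Cxcl16 when any but FAN1KO saline replicate 3 was. Cxcl17 and Cxcl5 remained called in all 12 of these fits, but Cxcl17 was not called with a pseudocount of 0.1 or with voom on recovered reads (adjusted p = 0.162). The interaction of Cxcl1 was 2.38 (SE 0.89, adjusted p = 0.128) and that of Cx3cr1 1.71 (SE 0.55, adjusted p = 0.0863), neither past the threshold. For Ccl5 it was -0.63 (SE 0.90, adjusted p = 0.701), and -1.93 in the 8 libraries (adjusted p = 0.0260). Scaling changed the positive share of all interaction calls from 83.6% to 68.0%.

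**Figure D4:**
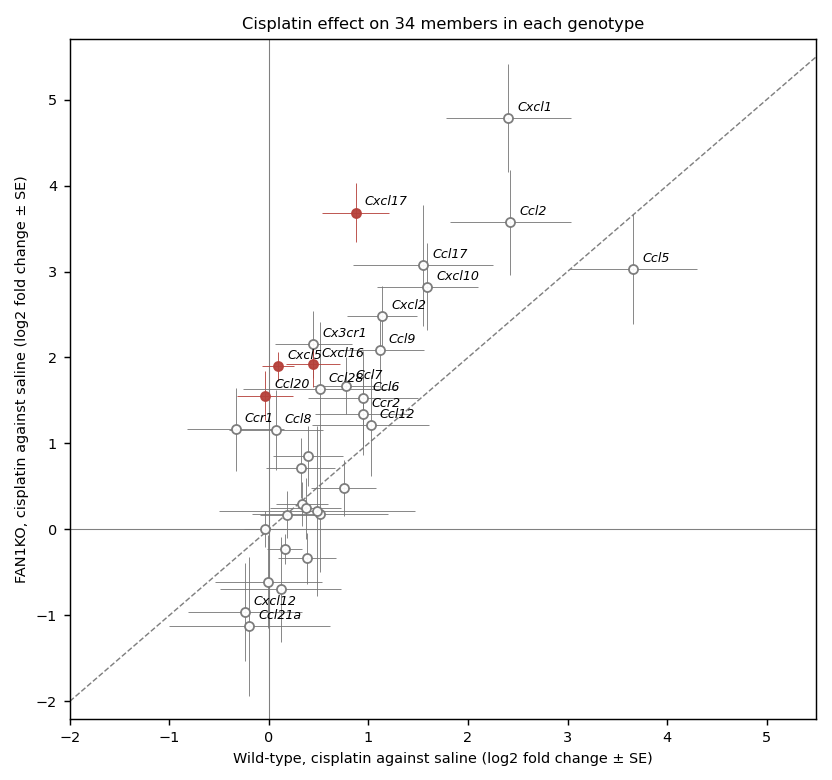
Log2 fold change of cisplatin against saline with its standard error for 34 tested members, in wild-type kidneys (horizontal) and FAN1KO kidneys (vertical), with equal effects on the dashed line. The 4 filled points, Cxcl17, Cxcl16, Cxcl5 and Ccl20, are the members whose 2 effects differed by the interaction test, and Ccl5, at 3.66 and 3.03, lies under the line.

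With saline, FAN1KO and wild-type kidneys did not differ by the test in any member, and 0.341% of all genes were higher and 0.427% lower. At an unadjusted p under 0.05, 1 member was higher and 2 were lower, as were 2.94% and 5.44% of all genes. The higher one was Ccl25, the thymus and gut ligand of Ccr9, at 4.83, 5.95 and 6.58 TPM in wild-type and 10.2, 9.20 and 9.42 TPM in FAN1KO saline kidneys, without overlap (log2 fold change 0.65, SE 0.18, adjusted p = 0.193). The lower ones were Ccl28 and Ccr1. FAN1KO saline replicate 1, with Y-linked RNA, had 4.02 TPM of Cxcl1, above the other 5 saline libraries.

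Other parts of the chemokine system were read from lists of genes. Beside the counts below, 19.6% of all genes were higher and 4.37% lower between the cisplatin genotypes. After cisplatin in FAN1KO the shares were 34.9% and 4.90%. None of the 3 tested atypical and decoy receptors, which bind chemokines without the usual signal, was called between the cisplatin genotypes, and Ackr3, the scavenger of Cxcl12, was at 41.1, 53.1 and 34.7 TPM in wild-type and 37.0, 35.2 and 51.9 TPM in FAN1KO cisplatin kidneys. Ackr4 was called higher after cisplatin in FAN1KO (log2 fold change 0.65, adjusted p = 0.0418). Of the platelet chemokines Pf4 and Ppbp only Pf4 was tested, and it was called in the same comparison (log2 fold change 1.31, adjusted p = 0.00938). Of 17 tested signalling and migration genes only 1 was higher in FAN1KO than in wild-type cisplatin kidneys, a smaller share than that of all genes, and none was lower. It was Gnai2, the inhibitory G protein subunit to which these receptors couple (log2 fold change 0.80, adjusted p = 0.0127). After cisplatin in FAN1KO 9 of the 17 were higher, beside 34.9% of all genes, and none was lower, among them Rac2 and Vav1 of leukocytes. Of 5 tested cleavage and display genes the syndecans Sdc1 and Sdc4, heparan sulfate carriers, were higher in both comparisons (Sdc1, log2 fold change 1.21, adjusted p = 0.0277 between genotypes), while Adam10, Adam17 and Dpp4 were not called.

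Markers of cells that make or receive chemokines were read in the same libraries. The shares of all genes to set beside their counts are 19.6% higher and 4.37% lower between the cisplatin genotypes, and 34.9% higher after cisplatin in FAN1KO. Between the cisplatin genotypes, all 5 tubule injury genes (Havcr1, Lcn2, Krt20, Spp1 and Vcam1) were higher in FAN1KO, with Lcn2 at 4.37, 42.1 and 20.8 TPM in wild-type and 517, 349.8 and 265 TPM in FAN1KO kidneys, and 5 of 6 proximal tubule genes were lower. Of 6 general leukocyte genes none was called between the genotypes, and 3 were called higher after cisplatin in FAN1KO. The leukocyte sum was 38.1 to 100.2 TPM in wild-type and 79.6 to 209 TPM in FAN1KO cisplatin kidneys. Dendritic cell, T cell, natural killer cell, B cell and platelet markers gave 1 of 4, 1 of 7, 0 of 2, 0 of 2 and 0 of 2 tested genes higher between the genotypes, and none lower. Of 6 genes of other nephron segments Aqp2 was higher. Red cell genes (globins and Alas2, summed) were at 3049.7 to 7935 TPM in wild-type and 8.01 to 85.5 TPM in FAN1KO cisplatin kidneys. With saline they were at 1355.6 to 6941 TPM in wild-type and 619 to 1748.5 TPM in FAN1KO kidneys. All 5 tested were lower between the cisplatin genotypes and after cisplatin in FAN1KO, beside 4.37% and 4.90% of all genes. Blood RNA thus differed in the same group as the chemokine calls. The part of these cells in the chemokine differences was not tested.

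The 20 members with a level above 0 but under the filter were 9 ligands and 11 receptors. Their highest values lay between 0.0419 and 4.98 TPM. The largest were those of Cxcl13 in FAN1KO cisplatin replicate 2 and of Ccl11 in wild-type cisplatin replicate 2 (3.21 TPM). Of the 18 receptors, 11 were under the filter, among them Cxcr2, Ccr4, Ccr6, Ccr7, Ccr9 and Ccr10, the receptors of several ligands described here, so that no statement is made on a difference in them. Fitted without the filter, Cxcl3 was called between the cisplatin genotypes and in the interaction, and Ccl22 and Cxcl3 after cisplatin in FAN1KO.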

How the data were processed

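RNA sequencing gave 12 libraries of whole mouse kidney. The authors deposited TPM, a level scaled by transcript length and library size, for each gene and library, and gene numbers are NCBI Gene numbers. The labels name genome build mm10 and the tool limma. The aligner, counter and annotation are not given in the sources used here. Names were found for 25275 of 27179 genes, and 0 columns were left unused.

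Groups came from the labels. The members and the gene lists were chosen with earlier results of these data known. Whole reads were recovered from the steps in TPM for 22557 of 22557 genes above 0, which held 232991 values (within 0.01 reads), and depth was summed from them. Of 500 genes whose values had been moved at random, 8 also came out whole. The 500 were drawn from genes above 0 in several libraries. Genes with few values above 0 fit some length easily, so the check does not cover them. limma 3.58.1 in R 4.3.3 was fitted to log2(TPM + 1), with 4 group means over all 12 libraries, empirical Bayes with a mean-variance trend, and Benjamini-Hochberg adjustment over the 14972 genes at 1 TPM or more in 3 or more libraries. A fold change on this scale understates changes of low genes. An exact two-sided permutation test of 3 against 3 was run for single members. On simulated data 188 of 200 genes changed by 2-fold were recovered, with 19 false calls among 14595 genes. The simulation gave every gene the same small spread beyond counting noise and no difference between libraries but depth and the changed genes. Kidney replicates can spread more, as Cxcl1 did in FAN1KO cisplatin kidneys (65.7 ± 28.6 TPM). The recovered share therefore does not give the power of the test in these data.

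Full values are given for up to 12 called members with the largest difference between the cisplatin genotypes, the 3 highest in wild-type saline kidneys, and tested receptors or ligands that pair with the former. The values of 1 member are not reported here. Other members given in full were chosen after their values were seen. Alternatives were the pseudocount, the filter, scaling, a Y-linked covariate, the libraries fitted, the trend, the replicate block and leaving out each library. limma-voom on recovered reads, the 8 libraries without Y-linked RNA and an added fold of 2 were chosen after seeing the data. Promoter windows are RefSeq's for GRCm38.p6 and opposite-strand genes are from GENCODE. Python 3.11.15, numpy 2.4.6, pandas 2.3.3, scipy 1.17.1 and matplotlib 3.10.9 were used.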

Additional observations from a re-analysis of the deposited data

Results flagged for a closer look

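For 4 ligands the cisplatin effect in FAN1KO kidneys was larger than that in wild-type kidneys by a test of the difference itself (limma, interaction term, adjusted p under 0.05, 3 libraries per group). The log2 difference between the effects was 2.813 for Cxcl17, 1.804 for Cxcl5, 1.595 for Ccl20 and 1.483 for Cxcl16. Cxcl17, Cxcl5 and Ccl20 had fewer than 3 libraries at 1 TPM outside the FAN1KO cisplatin group and entered the test through it. Ccl20 was no longer called in 16 alternatives and Cxcl16 in 15, Cxcl17 in 2 and Cxcl5 in none of those run.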

How the results depend on the processing

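None of the 24 called log2 fold changes of named members changed sign under an alternative, while small values that were not called did. Between the cisplatin genotypes the 7 calls became 11 with Y-linked RNA as a covariate and 12 in the 8 libraries without it (9 higher and 3 lower), each time with the 7 among them, and 5 to 9 when a library was left out. Cx3cr1 and Cxcl2 were lost without FAN1KO cisplatin replicate 1 and when only the 6 libraries compared were fitted, and Cxcl2 also with a pseudocount of 0.1. Cx3cr1 was lost without wild-type cisplatin replicate 1, Cxcl2 without FAN1KO cisplatin replicate 3, and Ccl2 and Ccl7 were gained without wild-type cisplatin replicate 3. With saline, 0 calls became 2 in the 8 libraries (Ccl28 lower, Cxcl9 higher) and 0 to 0 when a library was left out.

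The 15 calls for cisplatin in FAN1KO became 25 with the covariate, 20 in the 8 libraries and 13 to 16 when a library was left out. Those 25 include 4 lower calls. In wild-type kidneys 0 calls became 2 with the covariate (Ccl5 and Cxcl10), 5 in the 8 libraries and 0 to 4 when a library was left out, the 4 without wild-type cisplatin replicate 1. The 4 interaction calls became 1 with a pseudocount of 0.1 (Cxcl5), 2 with voom on recovered reads (Cxcl5 and Cxcl16), 8 with the covariate, 8 in the 8 libraries (6 positive and 2 negative) and 2 to 3 when a library was left out. The share of all genes called higher also grew in the 8 libraries. It went from 19.6% to 28.9% between the cisplatin genotypes, from 34.9% to 44.4% for cisplatin in FAN1KO and from 0.0601% to 0.401% in wild-type. For the other alternatives in this section no share of all genes is given beside the count. Those counts are therefore not read as results about the members. The cause of these shifts was not tested.

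With the replicate number as a block, 7 members were called between the cisplatin genotypes, 0 with saline, 14 for cisplatin in FAN1KO, 0 in wild-type and 2 for the interaction, where Ccl20 and Cxcl16 were lost. The numbers do not pair the samples: the correlation of same-numbered libraries ran from -0.61 to 0.60. Of single-member values, 330 kept their call and 50 fell short of the threshold with the same direction. The 22 members under the filter, 2 of them listed at 0, were not tested.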
